A study of Homo sapiens with 4 samples.

Results

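The genes described here encode the human bromodomain proteins outside the BET family. They were chosen by name, with earlier results of these data known, and all 37 were found among the 64252 Ensembl genes of the count table through their symbols. RNA was sequenced from cells labelled NB4 after 24 h with 8 μM dBET1 (2 libraries) or 24 h with DMSO, the solvent control (2 libraries), so that both groups carry the same label of cell line and time and differ in the compound. NB4 is a promyelocytic leukemia line that carries PML-RARa. The degrader dBET1 couples a BET bromodomain ligand with one for cereblon, the substrate adaptor of an E3 ubiquitin ligase. The comparison asks what happened to the transcripts of the bromodomain genes that dBET1 was not built to target.

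A bromodomain is a bundle of helices with a pocket that binds acetylated lysine, most often on histone tails. Outside the BET family it sits in the acetyltransferases that write the mark, in the scaffold subunits of their complexes, in histone methyltransferases, in subunits of the SWI/SNF and ISWI chromatin remodelers, and in readers such as the TRIM and SP100 families. Most of these genes are expressed in many tissues, while SP140 is largely restricted to blood cells.

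The counts summed to 28019956 to 34685645 per library. Levels are given as CPM, counts scaled to a common normalized library size, and changes as log2 of the level with dBET1 over that with DMSO. The marker genes did not follow the label. A sum over 5 granule genes of promyelocytes (CTSG, PRTN3, AZU1, ELANE and MPO) gave only 15 to 55 counts per library, with ELANE and CTSG at 0 in all 4 libraries and MPO at 0 in both DMSO libraries. A list of 10 erythroid genes, among them the fetal globin gene HBG2 and the transcription factor gene GATA1, gave sums of 186113 and 192894 counts with DMSO against 100618 and 100945 after dBET1. A list of 4 lymphoid genes summed to 53 to 75. The cells are therefore named only as the libraries are labelled. In bulk RNA, fewer cells of a type and less RNA per cell cannot be told apart.

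All 37 bromodomain genes passed the filter on low counts. In the quasi-likelihood test of edgeR, with calls at adjusted p values under 0.05, 25 were called (against 55.6% of all 17971 genes tested). Of these, 16 were higher after dBET1 (43.2%, against 28.0% of all genes tested) and 9 were lower (24.3%, against 27.6%). Past an absolute log2 fold change of 1 there were 6 higher genes (16.2%, against 16.9% of all genes) and 1 lower gene (2.70%, against 8.54%). With DESeq2, 5 genes were higher past that limit, and SP140L was just under it. The median log2 fold change was 0.28, beside 0.048 over all genes tested. The libraries of the 2 groups did not overlap for 34 of the 37 genes (91.9%, against 79.3% of all genes). With library totals as the only scaling, 22 were higher and 6 were lower, so that higher genes made up 78.6% of the calls and not 64.0%. Over all genes tested, 37.3% were then higher and 19.9% were lower. Higher genes made up 65.2% of those calls and not 50.4%, so that the shift was general. The median of all genes moved to 0.26 under that scaling and that of the bromodomain genes to 0.49.

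**Figure D1:**
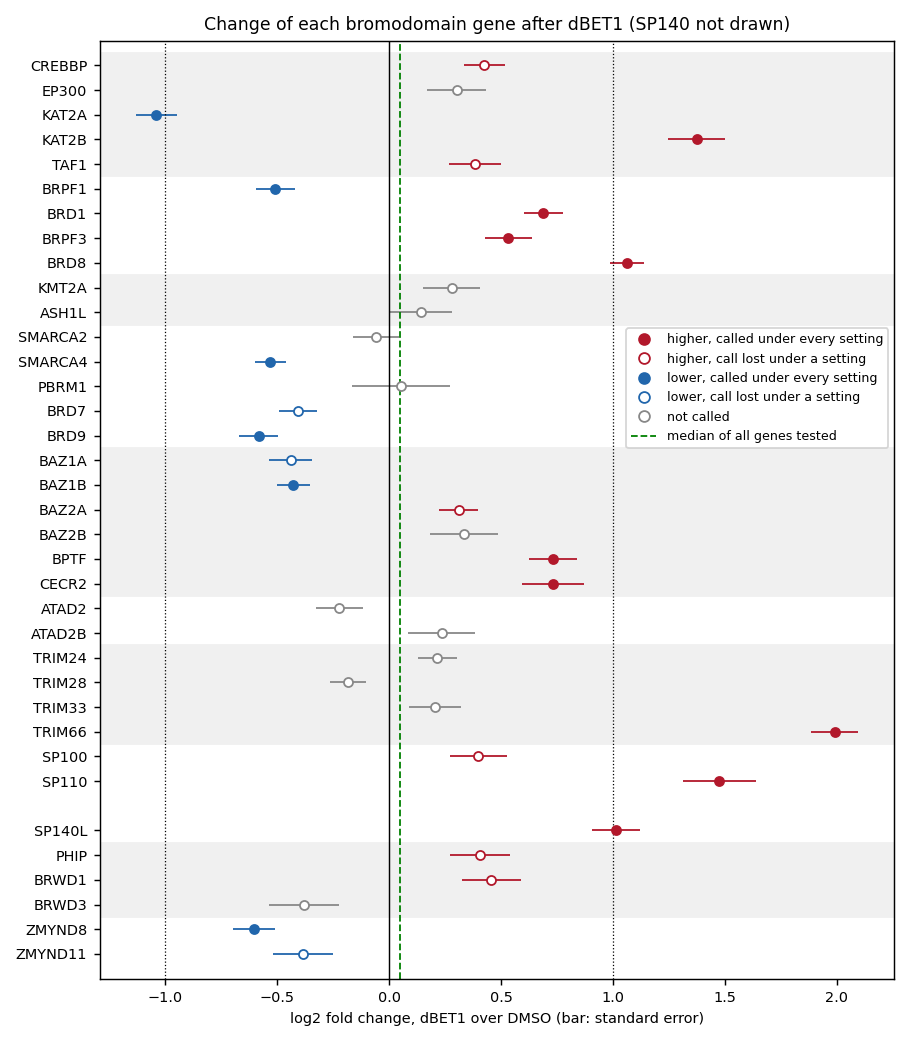
Log2 fold change of 36 bromodomain genes after dBET1 (horizontal axis, bar for the standard error), grouped by role in alternating bands, with filled points for calls made under all 10 alternative settings and dotted lines at -1 and 1. KAT2A is the only point left of -1, TRIM66 lies farthest to the right at 1.99, and SP140 is left out because its DMSO libraries held 3 and 0 counts.

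Of the 25 calls, 16 were made under every one of 10 alternative settings, each library left out included, 10 of them higher (KAT2B, BRD1, BRPF3, BRD8, BPTF, CECR2, TRIM66, SP110, SP140 and SP140L) and 6 lower (KAT2A, BRPF1, SMARCA4, BRD9, BAZ1B and ZMYND8). With no filter on low counts, 6 of the remaining calls were lost, those of CREBBP, TAF1, BAZ2A, PHIP, BRWD1 and SP100 (edgeR adjusted p from 0.0514 to 0.193), and ZMYND11 was lost too (0.0714). A fit without 1 library leaves 1 in that group, and the spread then comes from the other group alone. Without a DMSO library it comes from the dBET1 pair, which differed less (chi-square per degree of freedom 8.14, against 23.6 for the DMSO pair). Calls from such fits therefore do not measure the spread of the group with 1 library. The median of the list was 0.46 without DMSO replicate 1, where the median of all genes was 0.092. It was 0.071 without DMSO replicate 2, where all genes had 0.080. In 30 of 37 the level was higher in DMSO replicate 1 than in replicate 2, with a median log2 ratio of 0.22, beside 0.00 over all genes tested. The ratio moved with transcript length. With genes split into 4 bins by summed exon length, it was 0.10 over all tested genes of the longest bin and 0.22 over the 27 bromodomain genes there. In the dBET1 libraries the median ratio of the bromodomain genes was -0.014. The part of transcript length in the fold changes was not tested.

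**Figure D2:**
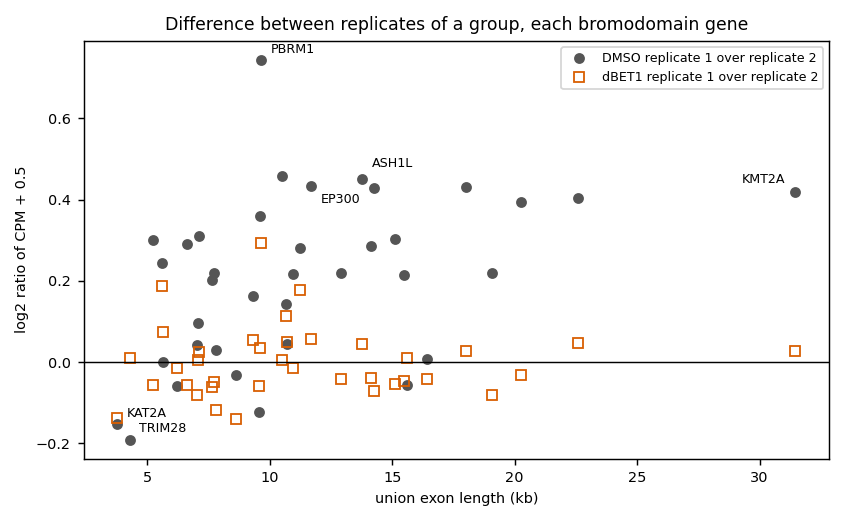
Log2 ratio of replicate 1 to replicate 2 (vertical axis, from CPM + 0.5) against union exon length in kb (horizontal axis) for the 37 genes, in the DMSO group (filled circles) and the dBET1 group (open squares). The DMSO ratios reach 0.74 for PBRM1 and most lie above 0, while the dBET1 ratios lie between -0.14 and 0.29.

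These genes are long and well expressed, and the background differed with abundance. In the most abundant of 4 equal bins of all tested genes, 16.8% were higher and 55.8% were lower. The 24 bromodomain genes in that bin had 8 higher and 8 lower (33.3% each). Among genes in both the most abundant bin and the bin of the longest genes (1211 genes), 22.7% were higher and 43.7% were lower, while 5 and 4 of the 16 bromodomain genes there were (31.3% and 25.0%). In DMSO the levels per kb of exon ran from 0.0082 CPM per kb for SP140 to 257 ± 23.9 CPM per kb (SD, n = 2) for TRIM28. KAT2A (42.5 ± 3.19), BAZ1B (39.2 ± 1.87), ATAD2 (32.9 ± 4.98) and SMARCA4 (29.7 ± 0.829) followed TRIM28 on the same scale. The values of the DMSO libraries overlapped between KAT2A and BAZ1B and between ATAD2 and SMARCA4, so that these neighbours do not differ beyond their spread.

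**Figure D3:**
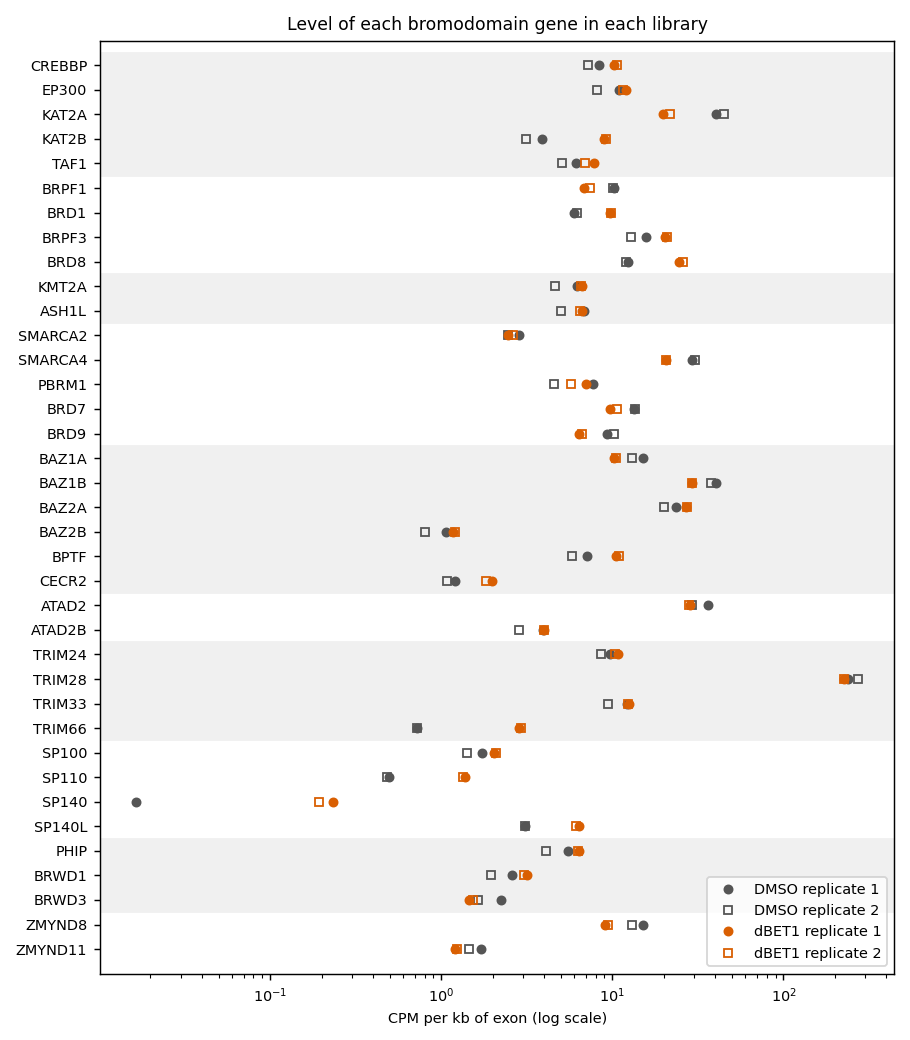
Level of each of the 37 genes in each of the 4 libraries as CPM per kb of union exon (horizontal axis, log scale), grouped by role in alternating bands. TRIM28 stands above 200 in every library, and SP140 has no point for DMSO replicate 2, where its count was 0.

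Among the acetyltransferases, the paralogs KAT2A (GCN5) and KAT2B (PCAF), which take the same place in the SAGA and ATAC coactivator complexes, moved in opposite directions. KAT2A (chromosome 17 of hg38, 42113111 to 42121367, reverse strand) was at 152 and 169 CPM in the DMSO libraries and at 74.2 and 81.7 CPM in the dBET1 libraries, a log2 fold change of -1.04 (standard error 0.0908, edgeR adjusted p = 6.93e-05). KAT2B (chromosome 3, 20040446 to 20154404, forward strand) was at 20.1 and 16.3 CPM with DMSO and at 46.3 and 48.2 CPM with dBET1, a log2 fold change of 1.37 (standard error 0.126, edgeR adjusted p = 8.62e-05). Neither gene's groups overlapped, as in 79.3% of all genes tested. The fall of KAT2A was short of the limit of 1 without DMSO replicate 2 (-0.99) and without dBET1 replicate 1 (-0.98), and with library totals as the only scaling (-0.83). Per kb of exon, KAT2A was 10.4 and 14.3 times as abundant as KAT2B in the DMSO libraries and 2.21 and 2.34 times in the dBET1 libraries.

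CREBBP and EP300, the paired coactivators that acetylate histone H3 at enhancers, had smaller changes. CREBBP was at 130 and 112 CPM with DMSO and at 159 and 165 CPM with dBET1 and rose by 0.43 on the log2 scale (standard error 0.0907, edgeR adjusted p = 0.00516), a call lost without dBET1 replicate 2 (edgeR adjusted p = 0.0609). EP300 was at 128 and 95.1 CPM with DMSO and at 141 and 135 CPM with dBET1 and was not called (log2 fold change 0.30, standard error 0.132, edgeR adjusted p = 0.0865). Its value was 0.51 without DMSO replicate 1 and 0.071 without DMSO replicate 2. TAF1, the largest subunit of the general transcription factor TFIID, rose by 0.38 (edgeR adjusted p = 0.0243), and its call was lost without DMSO replicate 2 (log2 fold change 0.22, edgeR adjusted p = 0.0570) and without dBET1 replicate 1 (0.205).

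All 4 scaffold subunits of acetyltransferase complexes were called, 3 of them higher (against 28.0% of all genes) and 1 lower (against 27.6%). BRD8, a subunit of the NuA4/TIP60 complex (chromosome 5, 138139770 to 138178953, reverse strand), was at 86.2 and 83.7 CPM with DMSO and at 172 and 182 CPM with dBET1, a log2 fold change of 1.06 (standard error 0.0765, edgeR adjusted p = 3.18e-05). Its exons overlap those of KIF20A on the other strand by 132 bp. KIF20A, with counts that were 63.5% to 108% of those of BRD8, rose by 0.42 (edgeR adjusted p = 0.0126). The part of this overlap in the counts of BRD8 was not tested. BRPF1, BRD1 and BRPF3 are alternative scaffolds for the MOZ, MORF and HBO1 acetyltransferases, and they diverged. BRPF1 was at 80.1 and 78.4 CPM with DMSO and at 53.4 and 58.0 CPM with dBET1 and fell by 0.51 on the log2 scale (standard error 0.0863, edgeR adjusted p = 0.00175). BRD1 was at 36.9 and 38.4 CPM with DMSO and at 60.4 and 61.0 CPM with dBET1 and rose by 0.69 (standard error 0.0870, edgeR adjusted p = 0.000406). BRPF3 was at 104 and 84.6 CPM with DMSO and at 134 and 139 CPM with dBET1 and rose by 0.53 (standard error 0.105, edgeR adjusted p = 0.00365). The groups did not overlap in these genes, as in 79.3% of all genes tested.

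The methyltransferase genes KMT2A, which writes methylation on lysine 4 of histone H3, and ASH1L, which writes it on lysine 36, were not called. KMT2A was at 196 and 146 CPM with DMSO and at 210 and 206 CPM with dBET1 (log2 fold change 0.28, edgeR adjusted p = 0.0966). ASH1L was at 94.5 and 69.1 CPM with DMSO and at 91.8 and 89.1 CPM with dBET1 (0.14, edgeR adjusted p = 0.407), and its groups overlapped. Without DMSO replicate 1 the log2 fold changes were 0.48 for KMT2A and 0.36 for ASH1L. Without DMSO replicate 2 they stood at 0.054 and -0.095.

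Of the bromodomain subunits of SWI/SNF remodelers, which slide and evict nucleosomes, 3 of 5 fell and the others were not called, beside 27.6% of all genes that were lower and 55.8% of those in the most abundant bin. SMARCA4 (BRG1), the more abundant of the alternative ATPases, was at 454 and 472 CPM with DMSO and at 321 and 319 CPM with dBET1 and fell by 0.53 on the log2 scale (standard error 0.0679, edgeR adjusted p = 0.000429). SMARCA2 (BRM), the other ATPase, was at 54.4 and 46.6 CPM with DMSO and at 47.1 and 49.9 CPM with dBET1, with overlapping groups (log2 fold change -0.059, standard error 0.104). BRD9, which marks the non-canonical BAF complex, was at 89.3 and 97.2 CPM with DMSO and at 60.9 and 63.5 CPM with dBET1 and fell by 0.58 (standard error 0.0860, edgeR adjusted p = 0.000887). BRD7, a subunit of the PBAF complex, fell by 0.41 (edgeR adjusted p = 0.00423), and the call was lost without dBET1 replicate 1 (0.0877) and with library totals as the only scaling (0.0822). Its exons overlap 3593 bp of ADCY7 on the other strand, whose counts were 73.6% to 79.0% of those of BRD7 and which fell by 0.45 (edgeR adjusted p = 0.00224), and how the counting used strand is not given in the sources used here. PBRM1, the PBAF subunit with several bromodomains in tandem, was at 74.6 and 44.3 CPM with DMSO and at 68.1 and 55.5 CPM with dBET1. Its DMSO libraries spanned the dBET1 values. The log2 fold change of PBRM1 was 0.45 without DMSO replicate 1 and -0.30 without DMSO replicate 2.

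The regulatory subunits that pair with ISWI-type ATPases did not share a direction, with 3 higher, 2 lower and 1 not called. BPTF, the large subunit of the NURF remodeler, was at 108 and 87.5 CPM with DMSO and at 160 and 166 CPM with dBET1 and rose by 0.73 on the log2 scale (standard error 0.107, edgeR adjusted p = 0.000840). CECR2, the subunit of the CERF remodeler, was at 12.8 and 11.5 CPM with DMSO and at 21.0 and 19.4 CPM with dBET1 and also rose by 0.73 (standard error 0.137, edgeR adjusted p = 0.00284). BAZ1A (ACF1) and BAZ1B (WSTF) fell, by 0.44 (edgeR adjusted p = 0.00556) and 0.43 (edgeR adjusted p = 0.00168). BAZ1B was at 286 and 267 CPM with DMSO and at 206 and 205 CPM with dBET1. The call of BAZ1A was lost without dBET1 replicate 1 (edgeR adjusted p = 0.0567) and with library totals as the only scaling (0.0867). BAZ2A (TIP5), which silences ribosomal RNA genes, rose by 0.31 (edgeR adjusted p = 0.0176), a call lost without dBET1 replicate 1 (0.109) or replicate 2 (0.138), and its log2 fold change was 0.17 without DMSO replicate 2. BAZ2B had 0.33 and was not called (edgeR adjusted p = 0.0973). Its value was 0.53 without DMSO replicate 1 and 0.12 without DMSO replicate 2.

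The AAA ATPase genes ATAD2 and ATAD2B were not called. ATAD2, a chromatin factor of proliferating cells, was at 259 and 209 CPM with DMSO and at 202 and 198 CPM with dBET1. Its log2 fold change was -0.22 (edgeR adjusted p = 0.104). The value was -0.40 without DMSO replicate 2 and -0.086 without DMSO replicate 1. ATAD2B was at 41.2 and 29.9 CPM with DMSO and at 41.9 and 41.8 CPM with dBET1 (0.23, edgeR adjusted p = 0.211). It stood at 0.46 without DMSO replicate 1 and at -0.0082 without DMSO replicate 2.

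Among the TRIM proteins, TRIM66 had the largest rise of any bromodomain gene with more than 3 counts in each library. TRIM66 (chromosome 11, 8612037 to 8682694, reverse strand) is a member of the TIF1 group that is best known from testis. It was at 11.9 and 11.8 CPM with DMSO and at 46.6 and 47.9 CPM with dBET1, 3.98 times as high, with a log2 fold change of 1.99 (standard error 0.105, edgeR adjusted p = 1.22e-05). No alternative gave less than 1.94. The other TIF1 genes were not called and had log2 fold changes of 0.22 for TRIM24 (edgeR adjusted p = 0.0688), -0.18 for TRIM28 (edgeR adjusted p = 0.0859) and 0.21 for TRIM33 (edgeR adjusted p = 0.173). TRIM28 (KAP1), the corepressor of the KRAB zinc finger proteins, was at 1033 and 1178 CPM with DMSO and at 978 and 970 CPM with dBET1. Without DMSO replicate 1 the values were 0.27 for TRIM24, 0.37 for TRIM33 and -0.30 for TRIM28. Without DMSO replicate 2 they were 0.11 for TRIM24, 0.0054 for TRIM33 and -0.12 for TRIM28. With library totals as the only scaling TRIM28 had a value of 0.028.

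The SP100 family was the role group in which every gene was called higher (against 28.0% of all genes). Its 4 genes encode components of nuclear bodies, several of them induced by interferon, and lie side by side within 380 kb of chromosome 2. SP110 (230165186 to 230225729, reverse strand) was at 5.30 and 5.12 CPM with DMSO and at 14.8 and 14.2 CPM with dBET1, a log2 fold change of 1.48 (standard error 0.163, edgeR adjusted p = 0.000212). SP140L (230327184 to 230403732, forward strand) was at 17.5 CPM in both DMSO libraries and at 36.3 and 34.5 CPM with dBET1. Its log2 fold change was 1.01 (standard error 0.107, edgeR adjusted p = 0.000172). That value fell short of 1 without DMSO replicate 1 (0.99), DMSO replicate 2 (0.98) or dBET1 replicate 1 (0.97). It was also under 1 with DESeq2 (0.9998), with its size factors in edgeR (0.9996) and with no filter on low counts (0.96). SP100 (230415942 to 230545606, forward strand) was at 24.4 and 20.0 CPM with DMSO and at 28.9 and 29.7 CPM with dBET1 and rose by 0.40 (standard error 0.129, edgeR adjusted p = 0.0310). That call was lost without DMSO replicate 2 (log2 fold change 0.23, edgeR adjusted p = 0.102), dBET1 replicate 1 (0.117) or dBET1 replicate 2 (0.157). SP140 (230203110 to 230313215, forward strand) was counted 3 and 0 times with DMSO against 39 and 33 times after dBET1, a ratio of 24.1 per normalized library size (exact 95% interval of the counts 7.92 to 119, which covers counting error only), and was called higher (edgeR adjusted p = 0.00165). Its 3 DMSO counts were all in replicate 1. The ratio was 12.9 (exact 95% interval 4.25 to 64.2) without DMSO replicate 2, and without DMSO replicate 1 it was at least 11.1-fold higher, taking 3 counts in the remaining DMSO library as the floor. SP140 overlaps the exons of SP110 by 170 bp on the other strand and is similar in sequence to SP140L, so that its few counts are uncertain. All 4 genes had a higher level in each dBET1 library than in either DMSO library, while the groups of 79.3% of all genes did not overlap in one direction or the other. SP140 was in the least abundant of the 4 bins of all tested genes and SP110 in the next. In these bins 34.9% and 34.7% of all genes were higher.

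The promoters of the family are shown because its genes were all called higher, though by unlike amounts, and because SP110 and SP140 share theirs. The RefSeq starts of the pair (GRCh38.p14) point away from each other with 99 bases between them, and the stretch below is the whole of it on the forward strand, chr2:230225637-230225735. For SP100 and SP140L the 120 bases before the first RefSeq start are given, both on the forward strand, at chr2:230416081-230416200 and chr2:230327073-230327192. Capitals mark AANNGAAA or its reverse complement TTTCNNTT, a core of the sites that interferon regulatory factors bind. A second match of the shared promoter runs past the SP140 start and is not capitalised whole. This motif was chosen after the sequences had been read.
SP110 and SP140: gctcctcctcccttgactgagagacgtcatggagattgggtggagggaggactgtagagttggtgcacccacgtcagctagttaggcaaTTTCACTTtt
SP100: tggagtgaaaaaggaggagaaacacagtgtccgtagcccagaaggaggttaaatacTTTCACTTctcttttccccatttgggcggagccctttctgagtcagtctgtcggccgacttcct
SP140L: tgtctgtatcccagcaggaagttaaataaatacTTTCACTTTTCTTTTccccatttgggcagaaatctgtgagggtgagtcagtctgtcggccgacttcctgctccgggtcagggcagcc
In windows of 250 bases before to 50 after a start, the motif was in 5 of the 6 windows of the family and in at least 1 window of each of its 4 genes. It was in 15 of the 57 windows of the bromodomain genes (26.3%) and in 22.8% of all 35116 windows. Since the motif was picked from the family's own sequences, the family's share cannot be weighed against these. The SP140 window is largely the SP110 window read from the other strand, and the windows of SP100 and SP140L share an identical run of 48 bases, so that these are not independent occurrences. A match is a string of letters and not a bound site.

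The other motifs were searched with no regard to the values. RefSeq windows were found for 32 of the 37 genes (57 windows), and TRIM24, BPTF, ATAD2, BAZ1A and TRIM28 had no entry. On either strand, the E-box CACGTG of MYC and MAX was in 4 windows (7.02%, against 7.26% of all windows), the GATA core GATAA in 8 (14.0%, against 22.7%), the ETS site GGAAGTG in 7 (12.3%, against 11.2%) and TATAAA in 3 (5.26%, against 11.5%). The core of the interferon-stimulated response element, which contains AANNGAAA, was in 1 window (1.75%, against 3.57%), that of SMARCA2. The E2F site TTTCGCGC was in 1 window (1.75%, against 0.515%), that of BRPF3, and TTTGGCGC was in 0 (against 0.652%). A window of TRIM66, shown since this gene rose most among those with more than 3 counts in each library, held the E-box, in capitals, with its first base 12 bases before the start. Its 120 bases before the start lie at chr11:8683232-8683351, read on the reverse strand.
TRIM66: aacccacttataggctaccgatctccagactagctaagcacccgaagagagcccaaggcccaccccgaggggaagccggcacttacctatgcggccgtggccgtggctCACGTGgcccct

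The WD-repeat proteins PHIP, BRWD1 and BRWD3, which serve as substrate receptors of CUL4 ubiquitin ligases, did not move together. PHIP was at 99.0 and 73.3 CPM with DMSO and at 115 and 113 CPM with dBET1 and rose by 0.41 (edgeR adjusted p = 0.0325). BRWD1 was at 58.3 and 43.9 CPM with DMSO and at 71.3 and 69.0 CPM with dBET1 and rose by 0.46 (edgeR adjusted p = 0.0201). BRWD3 was at 31.8 and 23.5 CPM with DMSO and at 20.7 and 21.8 CPM with dBET1 and was not called (-0.38, edgeR adjusted p = 0.0707). The calls of PHIP and BRWD1 were lost without dBET1 replicate 1 and without dBET1 replicate 2. Without DMSO replicate 2, PHIP was at 0.18, BRWD1 at 0.24 and BRWD3 at -0.61. Without DMSO replicate 1 BRWD3 was at -0.17.

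Both ZMYND readers fell, beside 27.6% of all genes that were lower. ZMYND8, a reader tied to transcriptional repression and DNA repair, was at 115 and 99.95 CPM with DMSO and at 69.3 and 72.3 CPM with dBET1 and fell by 0.60 on the log2 scale (standard error 0.0942, edgeR adjusted p = 0.00117). ZMYND11, which reads methylated lysine 36 of histone H3.3, was at 22.1 and 18.9 CPM with DMSO and at 15.5 and 15.9 CPM with dBET1 and fell by 0.38 (edgeR adjusted p = 0.0420). That call was lost with DESeq2 (adjusted p = 0.0577), with library totals as the only scaling (edgeR adjusted p = 0.321) and without DMSO replicate 1 (0.115), dBET1 replicate 1 (0.194) or dBET1 replicate 2 (0.139).

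To ask whether related genes moved by different amounts within a library, where scaling cancels, the ratio of paralogs was taken in each library for 12 pairs. With 2 libraries in each group the exact permutation test, two-sided, cannot go below p = 0.333, and after Benjamini-Hochberg adjustment over the 12 pairs the smallest value was 0.571, so that no pair could pass. In 7 of the 12 pairs the ratios of the groups did not overlap, beside 79.3% of single genes whose levels did not. With 2 against 2 libraries, labels given at random would separate a pair with a probability of 0.333. The ratio of KAT2A to KAT2B changed most, by -2.42 on the log2 scale (pooled SD 0.234). SP100 to SP110 changed by -1.07 (0.129), BRPF1 to BRPF3 by -1.05 (0.135), BRWD1 to BRWD3 by 0.83 (0.0618), SMARCA4 to SMARCA2 by -0.48 (0.146), ATAD2 to ATAD2B by -0.47 (0.0778) and BRD9 to BRD7 by -0.17 (0.0608). In the other 5 pairs the groups overlapped and the ratio changed by at most 0.11, among them BAZ1B to BAZ1A (2.68 and 2.92 per kb of exon with DMSO, 2.86 and 2.76 with dBET1) and CREBBP to EP300 (0.761 and 0.886 with DMSO, 0.857 and 0.919 with dBET1). The change of CREBBP to EP300 was 0.0017 without DMSO replicate 1 and 0.22 without DMSO replicate 2.

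**Figure D4:**
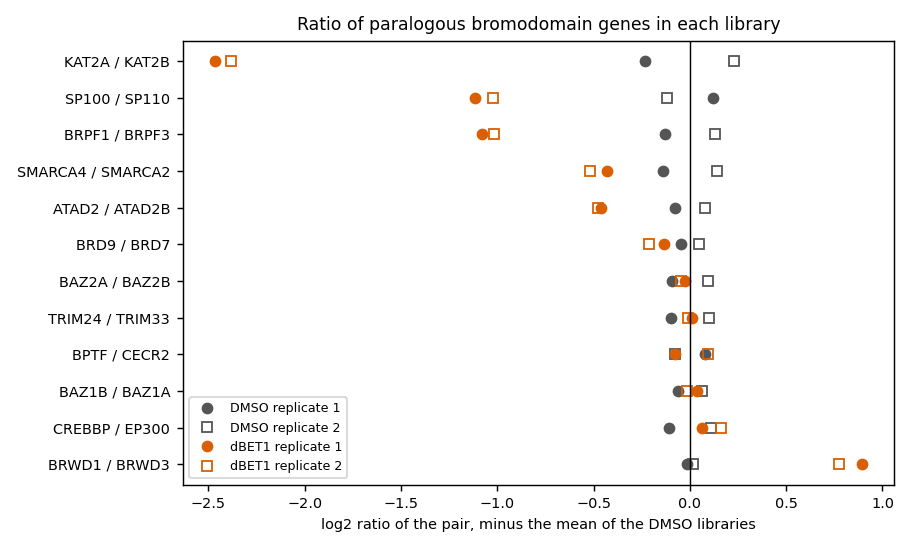
Log2 ratio of paralogous bromodomain genes in each library, less the mean of the DMSO libraries of that pair (horizontal axis), for 12 pairs ordered by their change. The dBET1 libraries lie to the left for KAT2A to KAT2B, near -2.42, and to the right for BRWD1 to BRWD3, near 0.83.

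The proteins work in complexes, and the other subunits of those complexes were counted as lists. Of 123 tested partner genes, 61 were lower (49.6%, against 27.6% of all genes) and 14 were higher (11.4%, against 28.0%; edgeR adjusted p under 0.05), with a median log2 fold change of -0.28. In the most abundant bin, which held 68 of the partners, 55.9% of the partners and 55.8% of all genes were lower. The share of lower partners there was that of the background, while 11.8% of the partners and 16.8% of all genes were higher. In the next bin, with 45 partners, 44.4% of the partners and 33.4% of all genes were lower. In that bin 6.67% of the partners and 25.6% of all genes were higher. The bins of less abundant genes held 8 and 2 partners. Only 7 partners were called higher without dBET1 replicate 1, and 7 without dBET1 replicate 2. With library totals as the only scaling, 42 were lower and 34 were higher. In SWI/SNF 11 of 22 tested partners were lower. None of them was called higher with edgeR or DESeq2 (2 were at an unadjusted p under 0.05 in edgeR, and 5 were called with library totals as the only scaling). In the NuA4/TIP60 list 9 of 17 were lower and 1 was higher, while the bromodomain subunit BRD8 rose. Its AAA ATPases RUVBL1 and RUVBL2 had the steepest falls among all partners. RUVBL1 was at 161 and 167 CPM with DMSO and at 63.3 and 62.5 CPM with dBET1 (log2 fold change -1.38, edgeR adjusted p = 1.33e-05). RUVBL2 was at 383 and 430 CPM with DMSO and at 137 and 135 CPM with dBET1 (-1.58, edgeR adjusted p = 1.17e-05).

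In the other complexes lower partners were also the larger number. Their shares ran from 33.3% in TFIID to 66.7% in the ISWI and CUL4 lists, against 27.6% of all genes. The shares of higher partners ran from 0% in the PML body list to 26.7% in TFIID, against 28.0% of all genes. Both shares of TFIID were thus near those of all genes. With library totals as the only scaling, the order turned for SAGA and ATAC (8 higher, 6 lower) and TFIID (6 higher, 3 lower). The BRPF list then had 2 in each direction. In SAGA and ATAC 11 of 25 partners were lower and 5 were higher, and in TFIID 5 of 15 were lower and 4 were higher. The histone-fold subunit TAF12, which is in both lists, rose from 14.1 and 15.6 CPM to 32.2 and 30.7 CPM (1.08, edgeR adjusted p = 0.000209). Of the partners of the BRPF scaffolds 4 of 9 were lower and 1 was higher, which was ING4 (1.49, edgeR adjusted p = 0.000666). Of those of the ISWI ATPases 6 of 9 were lower and 1 was higher. Among the partners of KMT2A and ASH1L 6 of 11 were lower and 2 were higher, and HCFC1, the host cell factor shared by several methyltransferase complexes, fell most (-1.13, edgeR adjusted p = 1.81e-05). Of the CUL4 ligase list 4 of 6 were lower and 1 was higher, with the RING subunit RBX1 at -1.13 (edgeR adjusted p = 8.87e-05). Of the TRIM28 list 5 of 11 were lower and 1 was higher, and the NuRD helicase gene CHD3 fell by 1.01 (edgeR adjusted p = 6.28e-05). Of 7 PML body genes 4 were lower, and 0 were called higher with edgeR or DESeq2 (1 at an unadjusted p under 0.05 in edgeR, and 2 with library totals as the only scaling), while SP100 and its relatives rose. Whether a list differs from its bromodomain subunits was not tested.

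**Figure D5:**
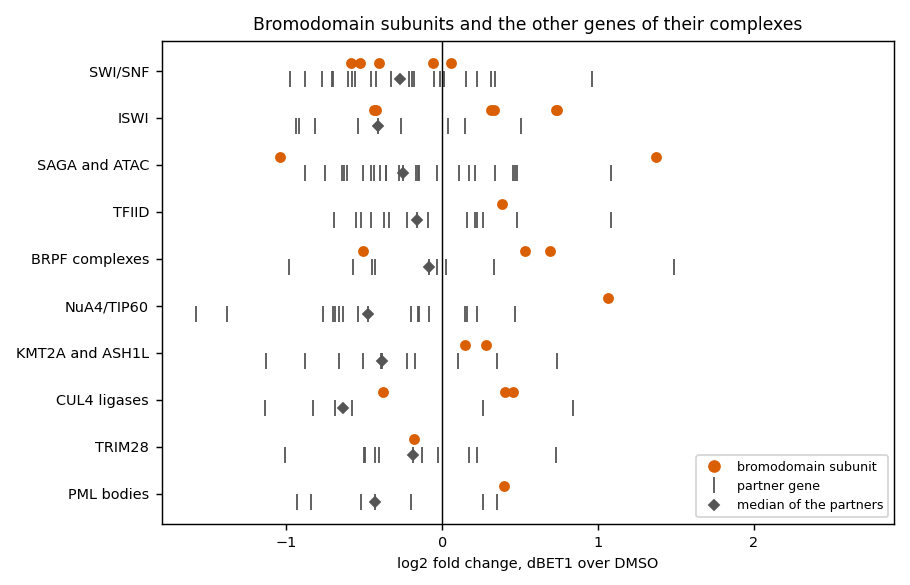
Log2 fold changes after dBET1 (horizontal axis) of bromodomain subunits (circles) and of the other genes of the same complex (ticks, with a diamond at their median), for 10 complexes. The medians of the partners lie below 0 in all 10, from -0.63 for the CUL4 ligases to -0.082 for the BRPF complexes (with library totals as the only scaling those of TFIID, BRPF and TRIM28 were above 0), and BRD8 at 1.06 lies above every NuA4/TIP60 partner.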

How the data were processed

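RNA-seq counts of 4 libraries were analysed. After quality filtering at the sequencing provider, the authors mapped reads to hg38 with HISAT2 2.2.0 (version as in the submitters' processing notes), estimated abundances with StringTie and deposited whole-number counts per Ensembl gene, without normalization. The step from abundances to counts and its strand setting are not given in the sources used here, so counts divided by 2 were 1 alternative. The columns of the control group are headed NC and were taken as DMSO, the only other group. The study says in general that experiments were repeated independently, but the labels do not say whether these libraries came from separate cultures, so p-values measure the spread between libraries, which may be technical. With 28019956 to 34685645 counts per library, the spread between replicates exceeded the counting error (chi-square per degree of freedom 23.6 and 8.14).

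Low counts were removed by filterByExpr, libraries were scaled by TMM, and groups were tested by quasi-likelihood in edgeR 4.0.16 (R 4.3.3), with the group as the only term and Benjamini-Hochberg adjustment over 17971 genes. Genes were called at an adjusted p under 0.05, and those also past an absolute log2 fold change of 1, as in the study, were counted separately. Lengths are union exons of GENCODE on hg38. In 3 simulations of this comparison (17443 to 17461 genes tested), 199 to 200 of 200 genes changed 3-fold were called in the right direction, with 9 to 11 unchanged genes. Recovery of changes smaller than 3-fold, which most of the bromodomain genes had, was not tested. Recovery with more than 200 changed genes was not tested either. The changed genes were drawn only from those above a count limit, and every gene was given the same dispersion. Low counts, as for SP140, and a wide spread between replicates, as for PBRM1, were thus not covered. Alternatives were DESeq2 1.42.0, its size factors, library totals, no count filter, the replicate block, counts divided by 2 and each library left out. Ratios used Python 3.11.15 with scipy 1.17.1. The genes and lists were chosen with earlier results of these data known. All 37 genes are named, and of partners up to 3 per list with the smallest p past both thresholds.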

Additional observations from a re-analysis of the deposited data

How the results depend on the processing

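Apart from the values below, the counts of called bromodomain genes and partners stayed within 1.5 times those reported under the 10 alternatives. That margin is wide, and how far the list stood above all genes depended on the DMSO library kept. The median of the list less that of all genes was 0.23 with all libraries. It was 0.37 without DMSO replicate 1 and -0.0096 without DMSO replicate 2. Of all genes tested, 5038 were higher, and 3356 without dBET1 replicate 2. With no filter on low counts, where 33380 genes were tested, 10 bromodomain genes and 6 partner genes were called higher. With library totals as the only scaling, the median log2 fold change of the list was 0.49, 0 genes were lower past the limit of -1 in edgeR (6 at an adjusted p under 0.05 without that limit, and KAT2A at -0.83), 34 partner genes were higher, and SMARCA2 and TRIM28 changed sign, to 0.15 and 0.028. When single libraries were left out, the median ran from 0.071 to 0.46, 0 to 1 genes were lower past the limit, and 7 to 21 partner genes were higher. The partner counts without the filter, with the replicate block, with counts divided by 2 and with single libraries left out were added after seeing the data. Values near 0 changed sign when single libraries were left out: ASH1L ran from -0.095 to 0.36, ATAD2B from -0.0082 to 0.46, PBRM1 from -0.30 to 0.45 and SMARCA2 from -0.20 to 0.029, and the paralog ratios from -0.052 to 0.071 for BAZ1B to BAZ1A, from -0.13 to 0.058 for BAZ2A to BAZ2B, from -0.077 to 0.093 for BPTF to CECR2 and from -0.098 to 0.10 for TRIM24 to TRIM33. PBRM1 was at -0.0030 with no filter. Where a fit left 1 library in a group, that library was assumed to vary like the other group.

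The replicate numbers did not pair the libraries (correlation of deviations -0.0075). With the replicate block 18 bromodomain genes were higher and 8 were lower; EP300 and KMT2A were then called higher (edgeR adjusted p = 0.0294 and 0.0397) and ZMYND11 was not called (0.0514). The cause of these shifts was not tested. Precision was limited by 2 libraries a group, and for SP140 by 3 counts in DMSO.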

Other observations

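Antisense transcripts at the bromodomain genes were looked at after their values were seen. BAZ2B-AS1, on the other strand of BAZ2B and overlapping its exons by 388 bp, was counted 166 and 127 times with DMSO against 329 and 377 times after dBET1, a log2 fold change of 1.28 (edgeR adjusted p = 0.000800). Its counts were 23.5% and 27.7% of those of BAZ2B with DMSO and 46.3% and 50.9% with dBET1, and BAZ2B itself was not called. UQCC5, which overlaps PBRM1 by 146 bp on the other strand, fell by 0.92 on the log2 scale (edgeR adjusted p = 0.00293). The strand of these reads cannot be told from the counts.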
